A study of Mus musculus with 11 samples.

Results

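ETn and MusD elements, a group of mouse endogenous retroviruses, were described in the poly(A) RNA of embryonic stem cells of 2 genotypes. The group was taken as every repeat feature whose name begins with ETn, MMETn, ERVB7_1 or RLTRETN. It held 776 of the 442429 features of the deposited repeat table, under 6 repeat names. The internal names are MMETn-int, ETnERV-int, ETnERV2-int and ETnERV3-int, and the names of the long terminal repeats (LTRs) are RLTRETN_Mm and ERVB7_1-LTR_MM. Members were taken by name and not by level, with earlier results of these data known.

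ETn (early transposon) elements are LTR retrotransposons of the ERVK class that have lost the retroviral genes and do not code for the proteins that copy them. MusD elements are their coding relatives, with gag, pro and pol genes, and supply those proteins to ETn copies, which still insert and cause mutations in laboratory mice. Both are transcribed in embryonic stem cells and early embryos, where the KRAB zinc finger pathway of TRIM28 and SETDB1 and DNA methylation keep many copies silent.

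The series profiled mouse J1 embryonic stem cells with mutations of the DNA methyltransferases (DNMTs), and 2 of its 11 samples had repeat values used here. Both are RNA libraries at day 0, 1 from cells of genotype TKO, which labels of other samples spell DNMT TKO, and 1 from cells of genotype TKO_FL; the sources used here do not say what FL stands for. Both cultures grew on fibroblast feeders treated with mitomycin C, in serum and LIF, and the RNA was selected with oligo(dT) beads and sequenced without marking strand. There was 1 library per genotype, so no difference could be set against the spread between replicates, and no p-value is given. Each interval is the exact 95% binomial (Clopper-Pearson) interval of a ratio of fragments, on the log2 scale, and covers counting error only. It takes fragments as whole and independent, which fragments shared between features are not.

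The repeat table held 1327700 fragments in TKO and 1179815 in TKO_FL, and 10860312 and 10084490 fragments lay on genes. Dnmt1, the maintenance methyltransferase gene, had 54.9 TPM (a level per length, scaled to a fixed library total) in TKO and 1177 TPM in TKO_FL, the de novo gene Dnmt3a had 7.85 and 8.12 TPM, and Dnmt3b had 36.9 and 17.6 TPM. All 8 embryonic stem cell markers were present in both libraries, with summed levels of 8359 and 10754 TPM, and none was 2-fold apart. Markers of other cells were present too: the summed level of 8 fibroblast markers was 413 TPM in TKO and 207 TPM in TKO_FL, with 4 at least 2-fold lower, and that of 10 primitive endoderm markers was 498 and 70.8 TPM, with 10 of 10 lower. Over the 13642 genes that reached 1 TPM in a library, 3.58% were higher by 2-fold or more and 3.06% lower. No marker of these lists was at 0. Fewer cells of a type and less RNA per cell cannot be told apart in bulk RNA, and the part of these cells in the results below was not tested.

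A feature is the sum over the copies that carry the same number under a repeat name, mostly on several chromosomes, and 5308 copies stood behind the 776 features. Joined on the mm10 genome where copies on the same strand lay within 1000 bases, they formed 2717 stretches. Of these, 309 (11.4%) had an LTR at both ends of internal sequence, 996 (36.7%) were LTRs alone and 1182 (43.5%) were internal sequence alone. Alone means without the other part under the 6 names, so internal sequence alone may still lie beside LTRs of other names. ERVB7_2B-LTR_MM, for example, had 92 of its 590 copies in contact with the group. The 97 complete elements with RLTRETN_Mm ends and MMETn-int inside had a median length of 5499 bases, and the 83 with ERVB7_1-LTR_MM ends and ETnERV-int inside had one of 7347 bases. The 2 kinds thus differed in length by more than 1 kb at the median. Another 60 complete elements with RLTRETN_Mm ends and 50 with ERVB7_1-LTR_MM ends held both ETnERV-int and MMETn-int. Their median lengths were 5496 and 5552 bases. The pairing of names was loose. Of the places where ETnERV-int met an LTR of the group, 285 (71.4%) were with ERVB7_1-LTR_MM and 114 with RLTRETN_Mm. MMETn-int met RLTRETN_Mm at 363 places (78.9%) and ERVB7_1-LTR_MM at 97. ETnERV2-int met each of these LTR names at only 2 places, and ETnERV3-int met neither.

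LTRs carry the promoter of an element, and a few RefSeq gene starts lie inside them. Of 32851 RefSeq promoter windows (build GRCm38.p6, 250 bases before to 50 after the start), 18 windows of 17 genes overlapped a copy of the group. In 12 genes the start lay inside a copy, LTR or internal, on the same strand. Some of these starts were in internal sequence, such as that of Gm41595 in ETnERV3-int. In 5 windows the whole 300 bases lay inside 1 LTR copy on the same strand. The windows of 4 predicted genes show what the 2 LTR names look like as DNA. They are Gm34581 (chr12:50980463-50980762, plus strand) and Gm46398 (chr13:103591310-103591609, minus strand), both in ERVB7_1-LTR_MM, and Gm38894 (chr6:124797044-124797343, minus strand) and Gm33296 (chr8:85159125-85159424, minus strand), both in RLTRETN_Mm. Each is printed 5′ to 3′ on the gene's strand, with CG dinucleotides, the sites DNMTs methylate, in capitals.
Gm34581, ERVB7_1-LTR_MM: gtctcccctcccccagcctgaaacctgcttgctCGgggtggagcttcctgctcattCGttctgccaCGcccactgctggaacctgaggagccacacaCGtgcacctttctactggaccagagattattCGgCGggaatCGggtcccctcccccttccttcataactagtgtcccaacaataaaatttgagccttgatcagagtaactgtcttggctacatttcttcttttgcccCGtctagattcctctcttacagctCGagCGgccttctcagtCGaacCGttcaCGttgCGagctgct
Gm46398, ERVB7_1-LTR_MM: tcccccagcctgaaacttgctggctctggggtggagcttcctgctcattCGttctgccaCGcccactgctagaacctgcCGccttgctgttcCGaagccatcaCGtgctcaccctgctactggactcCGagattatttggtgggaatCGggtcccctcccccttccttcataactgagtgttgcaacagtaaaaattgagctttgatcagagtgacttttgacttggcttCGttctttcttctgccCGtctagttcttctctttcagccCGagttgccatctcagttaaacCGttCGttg
Gm38894, RLTRETN_Mm: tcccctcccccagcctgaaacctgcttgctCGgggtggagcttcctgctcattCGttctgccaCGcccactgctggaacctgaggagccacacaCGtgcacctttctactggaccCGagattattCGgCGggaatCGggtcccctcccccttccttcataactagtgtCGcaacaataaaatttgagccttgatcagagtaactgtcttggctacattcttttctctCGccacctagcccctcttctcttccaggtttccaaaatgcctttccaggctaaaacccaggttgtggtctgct
Gm33296, RLTRETN_Mm: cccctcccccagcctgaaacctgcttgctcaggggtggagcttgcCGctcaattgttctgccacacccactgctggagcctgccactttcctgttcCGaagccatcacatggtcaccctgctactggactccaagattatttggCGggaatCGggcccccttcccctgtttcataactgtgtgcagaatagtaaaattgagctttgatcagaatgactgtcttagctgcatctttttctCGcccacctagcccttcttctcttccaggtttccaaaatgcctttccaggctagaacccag
They held 14, 12, 10 and 5 CG dinucleotides in that order, against a median of 7 over all promoter windows. Aligned bases were 88.3% to 90.9% identical between windows of the same name over 4 pairs. Of the 6 pairs with different names, 5 were 83.2% to 86.7% identical, below every pair of the same name. The exception was Gm34581 and Gm38894, at 92.1%. Along Gm34581, 97 of the first 100 bases, 98 of the second 100 and 74 of the last 100 matched Gm38894, so the difference between this pair lay mainly at the 3′ end. The letters TATAA were in none of these 5 windows on either strand, and 24.9% of all promoter windows held them. AATAAA, the letters of the polyadenylation signal, were in Gm34581 and Gm38894 on the gene's strand, and 11.3% of all windows held them so. A match of letters is a description and not a site.

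The features of these LTRs had little signal. ERVB7_1-LTR_MM_dup16, whose 20 copies include the Gm34581 LTR, had 1.87 TPM in TKO and 2.60 TPM in TKO_FL. RLTRETN_Mm_dup72, which includes the Gm38894 LTR, had 0.838 and 0.930 TPM, and RLTRETN_Mm_dup31, which includes the Gm33296 LTR, had 0.658 and 1.48 TPM. ERVB7_1-LTR_MM_dup41, which includes the Gm46398 LTR, was listed at 0 in TKO and at 0.530 TPM in TKO_FL, on 1 fragment. These values rest on at most 17.4 fragments in a library, and none of the differences is larger than its counting interval.

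ETn and MusD features were a little higher in TKO_FL than in TKO. Their summed level was 3154 TPM in TKO and 3650 TPM in TKO_FL, a log2 fold of 0.21 or 1.16-fold on the scale of log2(TPM + 1). They held 55659 and 59339 fragments, and the interval of the scaled ratio was 0.18 to 0.21. As a share of all repeat fragments the group made up 4.19% in TKO and 5.03% in TKO_FL. Its share of ERVK fragments was 37.1% and 56.2%. The ERVK total includes the IAP fragments, which were fewer in TKO_FL. TPM of repeats is relative to repeats only, and scaling to the fragments on genes gave a shift of 0.003 in log2 between the scales. Over the 81 features whose fragments were whole in both libraries, the direction of the group on summed TPM turned (log2 -0.81). These features hold only 161 and 141 fragments, a much smaller difference than in TPM. Summed TPM gives a fragment on a short feature more weight. One of them, RLTRETN_Mm_dup97, of 385 bases, went from 12.3 TPM to 0 on 6 fragments.

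MMETn-int, the internal name of ETn elements, carried most of the signal. It had 2402 TPM in TKO and 2773 TPM in TKO_FL, on 44040 and 46477 fragments (log2 0.21), and made up 76.2% of the group's TPM in TKO. Among ERVK names its TPM ranked 1 in both libraries. By fragments it stood below IAPEz-int in TKO, at 44040 against 49880. ETnERV-int is found in the longer elements and also, beside MMETn-int, in shorter ones. It had 509 TPM in TKO and 610 TPM in TKO_FL (log2 0.26), on 10632 and 11844 fragments. By TPM it ranked 6 in both libraries. Both intervals, 0.16 to 0.20 for MMETn-int on fragments and 0.22 to 0.30 for ETnERV-int, lie above 0 and do not overlap each other. The 2 names differ by less than 0.1 in log2. Most features of both names hold fractions of shared fragments, which the intervals do not allow for, so this difference was not tested. The level of MMETn-int was 4.72 times that of ETnERV-int in TKO and 4.55 times in TKO_FL.

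ERVB7_1-LTR_MM had 164 TPM in TKO and 200 TPM in TKO_FL (log2 0.29, interval 0.02 to 0.34), on 624 and 658 fragments. RLTRETN_Mm was the one name of the 6 that was lower in TKO_FL, with 67.0 TPM in TKO and 50.2 TPM in TKO_FL (log2 -0.41). Its fragments, 205 and 178, gave a log2 ratio of -0.10 with an interval of -0.40 to 0.20, which includes 0. One short feature of it, RLTRETN_Mm_dup97, went from 12.3 TPM to 0 on 6 fragments, and without it the log2 fold of the name was -0.12. ERVB7_1-LTR_MM thus stood above RLTRETN_Mm in both libraries, although RLTRETN_Mm has 1181 copies and ERVB7_1-LTR_MM 682.

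The other internal names were near the bottom of the scale. ETnERV2-int had 8.54 TPM in TKO and 8.90 TPM in TKO_FL, on 98 and 90 fragments (log2 0.05, interval -0.45 to 0.41). The log2 ratio of its summed fragments was -0.01, both on the TPM scale and scaled to the fragments on genes. ETnERV3-int had 3.81 and 8.14 TPM, on 60 and 92 fragments (log2 0.93, interval 0.24 to 1.21), and without its feature dup29, which had 0 and 3 fragments, the fold was 0.83. ETnERV3-int was the name with the largest fold of the 6, at the lowest level. ETnERV2-int has 1374 copies, the most of any of the 6 names, and yielded 0.0835 fragments per kb in TKO, against 37.2 for MMETn-int and 10.3 for ETnERV-int.

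**Figure D1:**
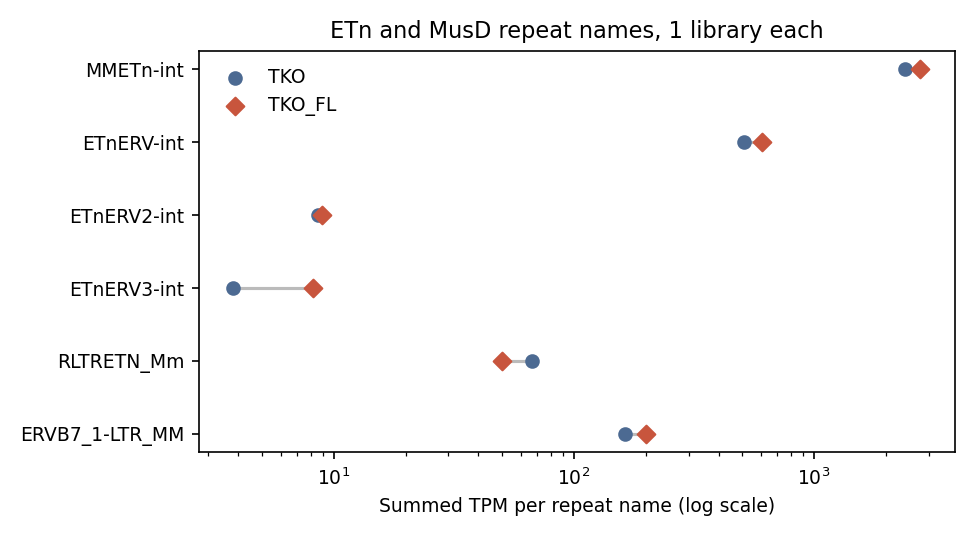
Summed TPM of the 6 ETn and MusD repeat names (log axis) in the TKO library (circles) and the TKO_FL library (diamonds), 1 library each. MMETn-int is highest at 2402 and 2773 TPM, and RLTRETN_Mm is the one name lower in TKO_FL.

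Across 1046 repeat names with a summed level of at least 5 TPM over both libraries, 65 (6.21%) stood at least 2-fold higher in TKO_FL and 71 (6.79%) at least 2-fold lower, with a median of -0.01. None of the 6 ETn and MusD names was past 2-fold on log2(TPM + 1). With 0.1 TPM added in place of 1, ETnERV3-int was past it (log2 1.08). Of the 6 names 5 were above 0 (4 by summed fragments, without ETnERV2-int), where 514 of the 1046 names were. The median of the 6 was 0.23. The IAP names, of another ERVK group repressed by the same pathway, went the other way. Of 17 IAP names 5 were at least 2-fold lower and 1 was above 0, with a median of -0.43. Summed over features, IAP had 2447 TPM in TKO and 578 TPM in TKO_FL, 4.23-fold lower (log2 -2.08). IAPEz-int, its main internal name, had 1891 and 317 TPM (log2 -2.57). By TPM it went from rank 2 to rank 9 among ERVK names, while MMETn-int stayed at rank 1. By fragments IAPEz-int stood above MMETn-int in TKO (49880 against 44040) and below it in TKO_FL (7370 against 46477). MERVL and MT2_Mm, an element of 2-cell embryos, had 316 and 299 TPM (log2 -0.08), and the other ERVK names together 11858 and 11730 TPM (log2 -0.02). No difference between these groups was tested, since there was 1 library per genotype.

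By feature, 332 of the 776 had signal in at least 1 library and 444 had none. With a minimum of 10 fragments over both libraries 151 were left, of which 65 were MMETn-int, 44 ETnERV-int, 24 ERVB7_1-LTR_MM, 8 RLTRETN_Mm, 5 ETnERV2-int and 5 ETnERV3-int. On log2(TPM + 0.1), 2 were at least 2-fold higher in TKO_FL, where 9.56% of the 23264 repeat features with that minimum were higher, and 4 were at least 2-fold lower, where 12.3% were lower (21.8% in either direction). The median was 0.17, with 115 above 0 and 36 below. Over the 23264 repeat features the median was -0.04, with 11059 above 0 and 12205 below. The interval lay above 0 for 38 features of the group and below 0 for 1, where 8.11% and 9.87% of the 23264 had such intervals. An interval narrows as fragments rise, so these shares also follow depth. Of the 605 IAP features with that minimum 2 were higher and 527 lower, with a median of -2.55, so most IAP features were lower where most ETn and MusD features stayed within 2-fold. Features of the group share fragments that map to several copies, and are not independent of each other.

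**Figure D2:**
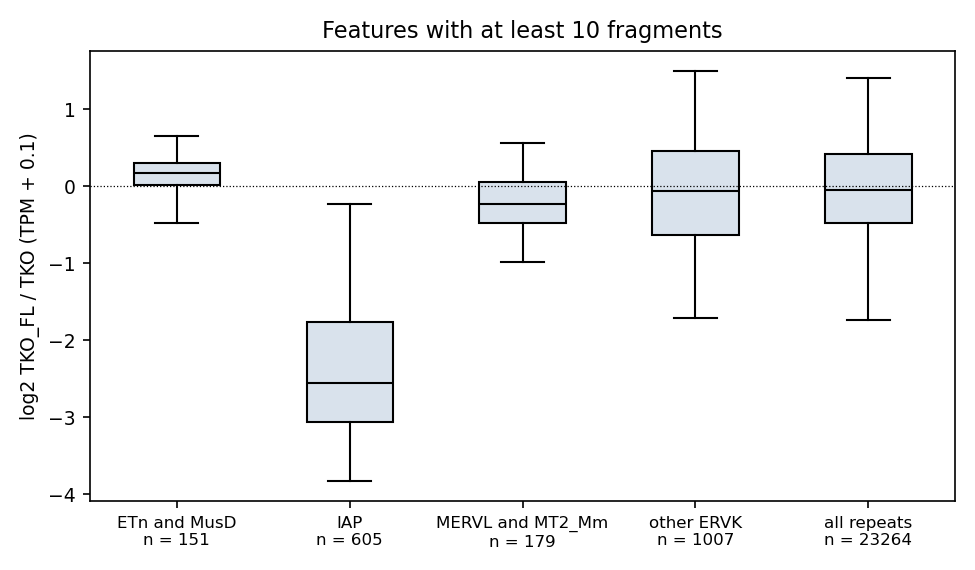
Log2 ratio of TKO_FL to TKO on TPM + 0.1 for features with at least 10 fragments, by repeat group (line, median; box, quartiles; whiskers, 5th to 95th percentile). The ETn and MusD median is 0.17 and the IAP median -2.55.

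The signal was concentrated. A total of 12 features held 50% of the group's fragments and 44 held 90%. The feature with the most fragments was MMETn-int_dup23, with 116 TPM in TKO and 144 TPM in TKO_FL, on 4341 and 5008 fragments (log2 0.31, interval 0.25 to 0.37), summed over 18 copies. MMETn-int_dup14 had 134 and 146 TPM (log2 0.13, 0.06 to 0.19). The 2 features with the most fragments had intervals that do not overlap. Both hold fractions of shared fragments, which the intervals do not allow for, so the difference between their folds was not tested. MMETn-int_dup22 had 69.3 and 77.5 TPM, MMETn-int_dup16 had 46.8 and 54.2 TPM, MMETn-int_dup9 had 47.6 and 52.2 TPM and MMETn-int_dup21 had 59.7 and 70.4 TPM. MMETn-int_dup13 had 48.4 and 54.4 TPM, MMETn-int_dup10 had 43.2 and 50.4 TPM, and MMETn-int_dup76 had 253 and 307 TPM over only 2 copies. ETnERV-int_dup17, the one of the 10 with another name, had 43.1 TPM in TKO and 54.9 TPM in TKO_FL (log2 0.35, 0.26 to 0.44), the largest fold of the 10. All 10 were higher in TKO_FL, with intervals above 0.

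Among features whose interval left out 0, the largest fold was that of ERVB7_1-LTR_MM_dup45, with 9.47 TPM in TKO and 19.4 TPM in TKO_FL, on 18.0 and 34.4 fragments (log2 1.03, interval 0.16 to 1.93). It was followed by ETnERV-int_dup53 with 4.39 and 6.41 TPM (log2 0.54), ETnERV-int_dup6 with 7.23 and 9.95 TPM (0.45), ETnERV-int_dup16 with 5.57 and 7.45 TPM (0.41) and MMETn-int_dup20 with 17.7 and 22.9 TPM (0.37). Of these 5, 3 carry the name ETnERV-int. The smallest folds with an interval above 0 were those of MMETn-int_dup14 (0.13), MMETn-int_dup15 (0.13), MMETn-int_dup9 (0.14) and MMETn-int_dup52 (0.14). The other features past 2-fold rest on few fragments and have intervals that include 0. RLTRETN_Mm_dup31 was higher, on 5.17 and 10.8 fragments, and ETnERV2-int_dup59 (8 and 3), ETnERV2-int_dup28 (8 and 2) and RLTRETN_Mm_dup82 (7 and 3) were lower.

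**Figure D3:**
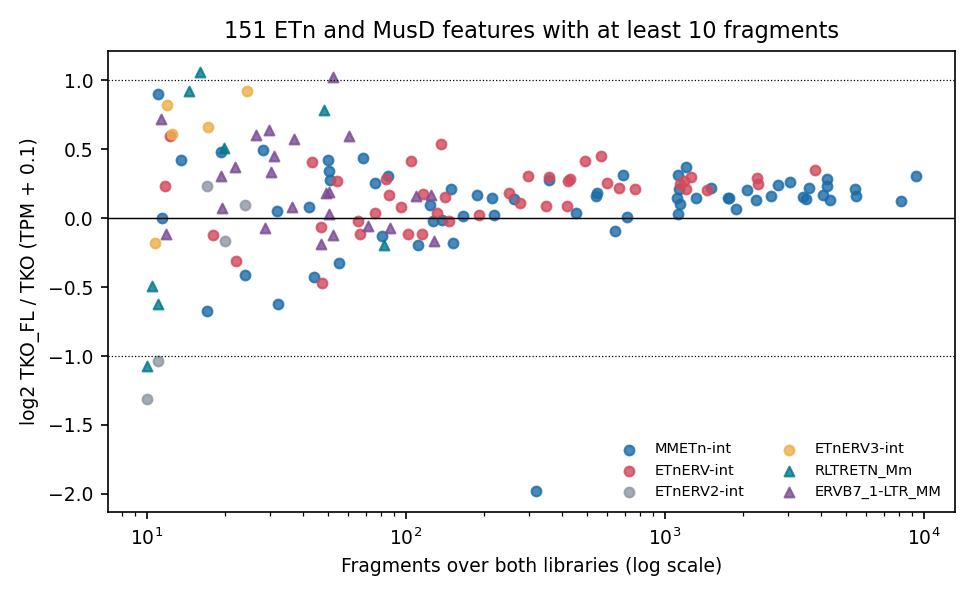
Log2 ratio of TKO_FL to TKO (TPM + 0.1) of the 151 features with at least 10 fragments, against their fragments over both libraries (log axis), coloured by repeat name; circles are internal names, triangles LTR names, dotted lines 2-fold. The spread narrows as fragments rise, and MMETn-int_dup42 lies alone at -1.98.

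Among the 151 features with at least 10 fragments, MMETn-int_dup42 was the one whose interval lay below 0. It had 14.7 TPM in TKO and 3.66 TPM in TKO_FL, on 257 and 59.4 fragments (log2 -1.98, interval -2.45 to -1.61). The feature joins 11 copies, and 4 long copies make up 13187 of its 13777 bases. These lie at chr1:153078715-153083057 in an intron of Nmnat2 on the opposite strand, at chr6:128874603-128878616 in an intron of BC035044 on the opposite strand, at chr13:33293471-33296645 between genes, and at chr17:57585534-57587188 between genes (mm10). Which copy gave the fragments cannot be told from the summed value. Nmnat2, which encodes an NAD-synthesising enzyme of neurons, had 14.2 TPM in TKO and 21.7 TPM in TKO_FL, so the host gene moved the other way, and BC035044 was listed at 0 in both libraries. Of the features of the group beside its copies, the 5 with over 100 fragments in TKO were not lower. Among them were MMETn-int_dup41 with 8.69 and 8.83 TPM, MMETn-int_dup40 with 27.3 and 27.9 TPM, and ETnERV-int_dup24 with 48.7 and 56.6 TPM. These are sums over 11 or 18 copies, so they do not give the level beside any 1 copy of MMETn-int_dup42. Neighbours with few fragments went both ways, such as RLTRETN_Mm_dup37 (4.63 and 1.73 fragments) and RLTRETN_Mm_dup90 (1.20 and 6.15). Without MMETn-int_dup42 the log2 fold of MMETn-int was 0.21, as with it.

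The internal part of the elements held most of the RNA. Internal names together had 2923 TPM in TKO and 3400 TPM in TKO_FL (log2 0.22), and LTR names 231 and 250 TPM (log2 0.12), a ratio of 12.7 in TKO and 13.6 in TKO_FL. The ratio of ETnERV-int to ERVB7_1-LTR_MM was 3.11 and 3.05, and that of MMETn-int to RLTRETN_Mm was 35.9 and 55.3. The second ratio carries the few fragments of RLTRETN_Mm given above. A fragment that matches the many near-identical LTRs may have been placed on any of them, and how the authors' counting dealt with this is known only in part, so a ratio of internal to LTR signal is a property of these deposited values.

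MMETn-int features were grouped by the LTR name of the elements that hold them. The 8 MMETn-int features with most of their bases in elements that end in ERVB7_1-LTR_MM had 174 fragments per kb in TKO and 195 in TKO_FL (5223 and 5834 fragments over 30.0 kb). The 73 with most bases in elements that end in RLTRETN_Mm had 32.3 and 33.6 fragments per kb, over 1001 kb, and 23 with neither had 42.6 and 45.8. The log2 fold of TKO_FL to TKO, on fragments with the TPM scale, was 0.26 (interval 0.21 to 0.32) for the first kind and 0.16 (0.14 to 0.18) for the second. The first kind thus stood higher per length in both libraries, and its fold was slightly larger, with intervals that do not overlap. This grouping was made after values had been seen, and the first kind has few features. The intervals do not allow for shared fragments, and the difference in fold was not tested. Only 5 of its 8 features had signal. They are MMETn-int_dup54, MMETn-int_dup55, MMETn-int_dup76, MMETn-int_dup77 and MMETn-int_dup110, each with a copy in an element of the next paragraph. The grouping and that paragraph thus describe the same features, and whether the level follows the LTR name was not tested.

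The features with the highest TPM lay in a few such elements. MMETn-int_dup77 had the highest level of the group, with 353 TPM in TKO and 439 TPM in TKO_FL (log2 0.32), followed by MMETn-int_dup54 with 326 and 378 TPM (0.22) and MMETn-int_dup76 with 253 and 307 TPM (0.28). MMETn-int_dup76 and MMETn-int_dup77 both have a copy in an element of 5541 bases at chr13:113718414-113723954 on the plus strand, between genes and nearest to Hspb3. MMETn-int_dup54 has its longest copy, of 1151 bases, in an element of 5542 bases at chr14:112366127-112371668 on the minus strand, nearest to Slitrk5. Another element, of 5538 bases, lies at chr7:136239910-136245447 on the minus strand, nearest to C030029H02Rik. Of its 4 internal pieces 1 is named MMETn-int and 3 ETnERV-int, while all 4 are MMETn-int in the other elements. Each of the 3 has ERVB7_1-LTR_MM at both ends and an MMETn-int piece of 3285 bases.

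In the element on chromosome 7 the piece of 3285 bases is the only copy of its feature, MMETn-int_dup110, so its value is not a sum over copies. Its fragments are not whole numbers, so some were shared with other places, and the value is not free of other copies. It had 131 TPM in TKO and 152 TPM in TKO_FL, on 545 and 587 fragments (log2 0.21, interval 0.04 to 0.38), close to the fold of the group. The LTRs of this element are single-copy features too, also with fractions of a fragment. ERVB7_1-LTR_MM_dup63, at the 3′ end of the element, had 34.6 and 43.6 TPM, and ERVB7_1-LTR_MM_dup64, at the 5′ end, had 4.11 and 9.63 TPM on 1.65 and 3.6 fragments. In the element on chromosome 13 the 3′ LTR feature, ERVB7_1-LTR_MM_dup46, had 33.4 and 37.4 TPM and the 5′ LTR feature, ERVB7_1-LTR_MM_dup45, had 9.47 and 19.4 TPM, each summed over 5 copies. In the element on chromosome 14 the 3′ LTR feature, ERVB7_1-LTR_MM_dup28, had 4.53 and 6.91 TPM and the 5′ one, ERVB7_1-LTR_MM_dup29, had 0.602 and 0.384 TPM, each over 15 copies. In all 3 the feature of the 3′ LTR stood above that of the 5′ LTR in both libraries, and the features of the chromosome 13 and 14 elements include copies elsewhere.

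**Figure D4:**
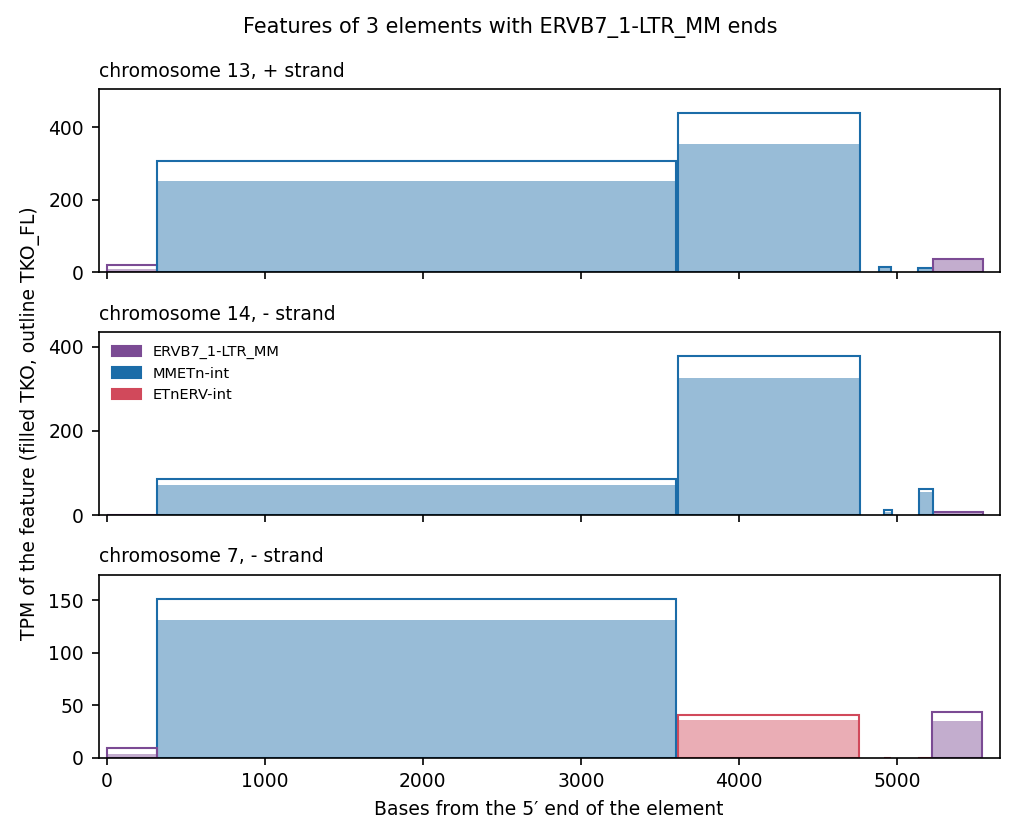
TPM of the features that make up 3 elements with ERVB7_1-LTR_MM ends, drawn along each element from its 5′ end in bases; filled bars are TKO and outlines TKO_FL, purple LTR, blue MMETn-int, red ETnERV-int. Features of the chromosome 13 and 14 elements sum 2 to 15 copies; the MMETn-int feature of the chromosome 7 element has 1 copy, at 131 and 152 TPM.

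Of 233 features with 1 copy, 17 had signal, 9 of them MMETn-int on chromosome 7. A feature has 1 copy only where its number occurs once under the name. The chromosome therefore follows from the numbering of copies, and the MMETn-int values here cover chromosome 7 only. MMETn-int_dup110 was the one of the 9 with ERVB7_1-LTR_MM at both ends. The 7 with RLTRETN_Mm had 0.840 to 16.5 TPM in TKO (median 1.97) and 0.639 to 18.6 TPM in TKO_FL (median 1.20), and MMETn-int_dup81, with both LTR names, had 0.402 and 0.432 TPM. The highest of the 7 was MMETn-int_dup94, with 16.5 TPM in TKO and 18.6 TPM in TKO_FL, at chr7:90413580-90417967 on the plus strand, 2861 bases from Sytl2. MMETn-int_dup87, in an intron of Snhg14 on the same strand, had 4.48 and 3.35 TPM. All 8 apart from MMETn-int_dup110 had intervals that include 0, so no difference between the libraries was detectable in them at this depth.

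**Figure D5:**
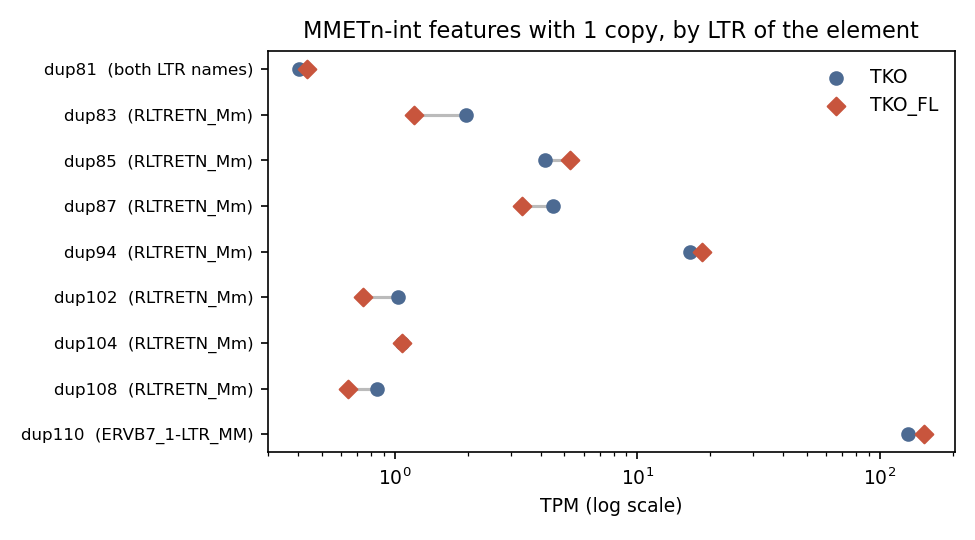
TPM (log axis) of the 9 single-copy MMETn-int features with signal in TKO (circles) and TKO_FL (diamonds), with the LTR name of the element each lies in. MMETn-int_dup110, with ERVB7_1-LTR_MM, is at 131 and 152 TPM, and the others lie between 0.402 and 18.6 TPM.

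Copies of the group lay mostly between genes. Of the 5308 copies 73.4% were intergenic, 26.0% intronic and 0.565% overlapped an exon. Where the gene strand was clear, 835 of 1181 intronic copies (70.7%) were opposite to their gene, and the share was 80.2% for RLTRETN_Mm, 72.7% for MMETn-int, 67.5% for ERVB7_1-LTR_MM and 62.9% for ETnERV-int. IAP copies had 65.4% of 5837 opposite. The chromosome with the most copies was X, with 597 (11.2%), followed by chromosome 7 with 505. Pieces under other names interrupt the elements. RLTR13G had 477 of its 763 copies (62.5%) in contact with the group, and 423 TPM in TKO and 480 TPM in TKO_FL (log2 0.18). ERVB4_1C-LTR_Mm had 464 of 848 (54.7%), and 258 and 296 TPM (log2 0.20). Both folds lie near the 0.21 of the group these names touch.

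Of the 17 genes with a promoter window in the group, 5 were in the gene table. Cyb5r1, a cytochrome b5 reductase gene, had 68.3 TPM in TKO and 94.6 TPM in TKO_FL (log2 0.46, interval 0.34 to 0.60), and its window overlaps an RLTRETN_Mm copy on the same strand by 61 bases, with the gene start outside it. Etl4 had 43.1 and 60.3 TPM (0.47, 0.39 to 0.58) and Wiz, a zinc finger partner of the histone methyltransferases EHMT1 and EHMT2, had 19.4 and 23.0 TPM (0.23, 0.10 to 0.39), both with an ERVB7_1-LTR_MM copy on the opposite strand. A630077J23Rik had 0.430 and 0.462 TPM, on 2 fragments in each library, and 4930558G05Rik was listed at 0 in both. RLTRETN_Mm_dup83, which holds the Cyb5r1 LTR among 5 copies, had 21.9 and 19.1 TPM, on 45.5 and 37.0 fragments (log2 -0.19, interval -0.88 to 0.45). That interval includes 0 and also the lower values of the gene's interval, and whether any transcript starts in the LTR was not tested.

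Genes known to silence ERVK elements or to act in DNA methylation were read from a list of 35, of which 34 were in the gene table. Of these 1 was at least 2-fold higher in TKO_FL, where 3.58% of 13642 genes were higher, and 1 at least 2-fold lower, where 3.06% were lower, with a median log2 fold of -0.12 against 0.00 for all genes. The one higher was Dnmt1 (log2 4.40) and the one lower was Dnmt3b (-1.03). Trim28, the corepressor that KRAB zinc finger proteins recruit, had 1568 TPM in TKO and 1178 TPM in TKO_FL (log2 -0.41). Setdb1, the histone H3 lysine 9 methyltransferase of that complex, had 77.5 and 64.1 TPM (-0.27). Zfp932 and Gm15446, neighbouring KRAB zinc finger genes whose products bind ERVK elements, had 24.0 and 12.4 TPM (-0.90) and 3.31 and 3.00 TPM (-0.11). They are related genes, so reads may be split between them. Resf1, a partner of SETDB1, had 61.2 and 80.7 TPM (0.39), Ehmt2, a histone H3 lysine 9 methyltransferase, 108 and 64.0 TPM (-0.75), and Dnmt3l, a cofactor of de novo methylation, 533 and 330 TPM (-0.69). The list thus held both genes above 0 (12) and below 0, with 32 of 34 genes within 2-fold, and any bearing on the repeats was not tested.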

How the data were processed

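RNA of 2 day 0 libraries, TKO and TKO_FL, was analysed, grouped by the genotype in the labels. Tools in the submitters' processing notes are featureCounts and Subread, HISAT2, SAMtools and Trim Galore, without versions or order, and the genome is mm10. The deposited repeat and gene tables hold a signal that the authors named TPM. Its columns sum to about 10 times the total that defines TPM and were divided by 10. No source used here gives the repeat annotation or how the repeats were counted. Fragments were recovered as TPM times length over the value of 1 fragment. They were whole for 100% of gene values, while 15.0% of repeat features with signal in TKO and 15.2% in TKO_FL held fractions (tolerance 0.001 of a fragment), so fragments had been shared between places. Among ETn and MusD features with signal the shares were 76.6% in TKO and 76% in TKO_FL. Among those of MMETn-int they were 95.9% and 98.6%. Repeat names were compared on log2(TPM + 1) and features on log2(TPM + 0.1), the latter with at least 10 fragments over both libraries and a threshold of 2-fold, and genes on log2(TPM + 1) with at least 1 TPM in one library. Intervals come from fragments scaled to TPM. The text names every repeat name, the 10 features with the most fragments, and the 5 highest and 5 lowest folds among features whose interval leaves out 0. Other named features were chosen after their values were seen, as were the join distance of 1000 bases and the grouping by LTR. The members and lists were chosen with earlier results of these data known. Each table has 11 columns of other libraries, which were not used. Scripts used biopython 1.88, matplotlib 3.10.9, scipy 1.17.1, pandas 2.3.3 and numpy 2.4.6 under Python 3.11.15, and the intervals were tested on simulated data. The simulated fragments were whole and not shared between features, so that test does not cover the shared fragments of this group. Promoter sequences are RefSeq's.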

Additional observations from a re-analysis of the deposited data

How the results depend on the processing

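Of 55 values under the alternatives, 33 stayed within the limits set for them and 22 moved. The sign turned for the group, MMETn-int and ERVB7_1-LTR_MM on summed TPM of features with whole fragments only. It also turned for ETnERV2-int (-0.01) on summed fragments scaled to the fragments on genes. None of these was past 2-fold in the main values. ETnERV3-int passed 2-fold with a pseudocount of 0.1 TPM (log2 1.08). On summed fragments scaled to the fragments on genes, the log2 fold was 0.18 for MMETn-int, -0.10 for RLTRETN_Mm, -2.44 for IAP and -0.20 for MERVL and MT2_Mm. The last pair was added after seeing the data. Summed fragments on the TPM scale gave 0.18, -0.10, -2.45 and -0.21. The move from the main values thus came from summing fragments in place of TPM, and the scales differ by 0.003. With only features whose fragments were whole in both libraries, 81 features and 161 and 141 fragments were left, and the fold was -0.81 for the group, -1.71 for MMETn-int (9 and 1 fragments), 0.76 for ETnERV-int (2 and 6), -1.59 for RLTRETN_Mm (45 and 25) and -0.59 for ERVB7_1-LTR_MM (1 and 1). That setting leaves out nearly all fragments of the group, since MMETn-int and ETnERV-int features mostly hold fractions. Its folds are of summed TPM, in which a few fragments on short features weigh heavily. Features at least 2-fold higher and lower were 2 and 4 of 151 as reported. Beside each alternative stand the shares of all repeat features called. The counts were 1 and 1 of 126 with a minimum of 20 fragments (5.65% and 8.46%), 53 and 39 of 332 with no filter (28.4% and 33.3%), and 8 and 9 of 154 with a level of at least 1 TPM in one library (27.4% and 29.4%). They were 0 and 1 of 151 with a pseudocount of 1 TPM (6.34% and 7.73%), 0 and 1 with fragments per kb scaled to the fragments on genes (6.78% and 8.13%), and 6 and 4 with no pseudocount and values of 0 placed at 3 fragments (9.96% and 13.2%). The ratio of internal to LTR signal was 66.1 in TKO and 70.0 in TKO_FL by fragments in place of TPM, since internal names are longer. MMETn-int without MMETn-int_dup42, RLTRETN_Mm without RLTRETN_Mm_dup97 and ETnERV3-int without ETnERV3-int_dup29 kept their sign, at 0.21, -0.12 and 0.83, in alternatives added after seeing the data. No paired analysis was possible because each genotype has 1 library, and no library could be left out. Depth limits the names ETnERV2-int, ETnERV3-int and RLTRETN_Mm, which hold at most 205 fragments in a library.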
